A study of Homo sapiens with 5 samples.

Results

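The genes of the spliceosomal snRNAs and of the small RNAs made by RNA polymerase III (Pol III) were examined for Rb binding in ZR-75-1 cells, an established hormone receptor-positive breast cancer line. Members were taken from a list of 37 gene symbols, and 36 of them were found among the 62663 genes that GENCODE 44 places on chromosomes 1 to 22, X and Y. The exception was RNY5, a Y RNA gene with no entry under that symbol, which was not analysed here. RNA polymerase II (Pol II) transcribes 18 of the members, namely the U1, U2, U4 and U5 genes with RNU11, RNU12 and RNU4ATAC, and Pol III transcribes the other 18. A member was called bound in a library when an Rb peak overlapped the window from 500 bp upstream to 200 bp downstream of its start site by at least 1 bp.

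Parental ZR-75-1 cells were given 500 nM abemaciclib, a CDK4/6 inhibitor that keeps Rb hypophosphorylated, or DMSO for 4 days, and Rb occupancy was profiled by CUT&RUN, which uses an antibody to bring a nuclease to its target on chromatin and then sequences the DNA cut free. Each treatment had 2 Rb libraries, and DMSO-treated cells also gave 1 library with IgG2a, the antibody control. Per the study, the replicates of a condition were separate cultures, each profiled in its own reaction. All groups came from 1 cell line, and peak lists hold no expression values with which to check its identity.

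Spliceosomal snRNAs form the core of the machinery that removes introns. The major spliceosome uses U1, U2, U4, U5 and U6, and the minor spliceosome, which removes a small class of introns, uses U11, U12, U4atac and U6atac together with U5. Promoters of snRNA genes of both kinds carry a proximal sequence element (PSE), bound by the SNAPc complex, and an upstream octamer that recruits Oct-1, and a TATA box next to the PSE directs Pol III rather than Pol II to the gene. Among the other Pol III genes, RN7SK encodes the RNA that holds the elongation factor P-TEFb inactive, RN7SL1 and RN7SL2 the RNA of the signal recognition particle, RPPH1 and RMRP the RNAs of RNase P and RNase MRP, and RNY1 the Ro-associated Y1 RNA. Hypophosphorylated Rb has long been described as a repressor of Pol III transcription.

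The promoter cores of the 10 members bound in both abemaciclib libraries were set beside those of 3 unbound members, RNU5A-1, RNU6-8 and RNY3, to show how far members of both outcomes share their promoter elements. Sequences run from 80 bases upstream to 20 bases downstream of the start site, 5′ to 3′ on the gene strand, from GRCh38. Capitals mark the PSE core (ACC and AA with 8 bases of any kind between them) and the TATA box (TATAA or TATAT), the first sought from 80 to 40 and the second from 40 to 15 bases upstream.
RNU11, chr1:28648520-28648619, plus strand: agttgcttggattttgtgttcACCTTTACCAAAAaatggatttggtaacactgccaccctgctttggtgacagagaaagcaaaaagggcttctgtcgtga
RNU12, chr22:42615164-42615263, plus strand: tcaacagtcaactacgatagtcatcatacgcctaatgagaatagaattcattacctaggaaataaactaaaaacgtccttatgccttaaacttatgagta
RNU4ATAC, chr2:121530801-121530900, plus strand: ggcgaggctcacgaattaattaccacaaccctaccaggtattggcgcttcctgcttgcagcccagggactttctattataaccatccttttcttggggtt
RNU6-1, chr15:67840026-67840125, minus strand: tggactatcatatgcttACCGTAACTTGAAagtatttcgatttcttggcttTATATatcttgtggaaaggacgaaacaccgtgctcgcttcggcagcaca
RNU6-2, chr19:1021442-1021541, plus strand: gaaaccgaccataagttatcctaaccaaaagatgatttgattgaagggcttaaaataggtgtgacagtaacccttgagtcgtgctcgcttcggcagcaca
RNU6-9, chr19:893404-893503, plus strand: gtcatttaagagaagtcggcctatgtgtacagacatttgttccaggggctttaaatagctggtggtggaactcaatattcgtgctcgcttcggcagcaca
RN7SK, chr6:52995541-52995640, plus strand: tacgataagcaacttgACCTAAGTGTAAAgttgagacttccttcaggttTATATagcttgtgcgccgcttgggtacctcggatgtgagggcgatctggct
RMRP, chr9:35657998-35658097, minus strand: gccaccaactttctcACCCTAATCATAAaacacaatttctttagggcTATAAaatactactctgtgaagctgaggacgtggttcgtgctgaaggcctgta
RPPH1, chr14:20343388-20343487, minus strand: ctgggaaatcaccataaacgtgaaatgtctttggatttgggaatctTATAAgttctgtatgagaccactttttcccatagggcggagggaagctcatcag
RNY1, chr7:148987229-148987328, minus strand: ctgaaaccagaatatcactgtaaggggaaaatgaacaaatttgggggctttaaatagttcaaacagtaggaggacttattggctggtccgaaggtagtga
RNU5A-1, chr15:65295971-65296070, plus strand: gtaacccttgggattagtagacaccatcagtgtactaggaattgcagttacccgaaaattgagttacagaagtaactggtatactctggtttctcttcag
RNU6-8, chr14:32203250-32203349, minus strand: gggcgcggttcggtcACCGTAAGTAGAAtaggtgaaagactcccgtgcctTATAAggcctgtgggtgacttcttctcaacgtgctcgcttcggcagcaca
RNY3, chr7:148983675-148983774, plus strand: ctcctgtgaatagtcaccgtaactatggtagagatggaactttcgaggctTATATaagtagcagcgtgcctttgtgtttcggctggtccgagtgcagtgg
RNU6-1, RN7SK and RMRP held both elements in this stretch, as did the unbound RNU6-8, while RNU11 held the PSE core alone. RNU12, RNU4ATAC, RNU6-2, RNU6-9 and RNY1 held no exact copy of either string within the bases where it was sought.

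Peaks numbered 1438 in DMSO replicate 1 and 2582 in replicate 2. With abemaciclib there were 13960 in replicate 1 and 12234 in replicate 2, and the IgG2a list held 589. Read depth is not part of the lists and was taken as unknown. Each peak has a fold, which is the fragment pileup at the summit plus 1 over the local background plus 1, and a rank by p-value in its own list. Folds and ranks were used within a list only, since they depend on that library's depth. The pileup behind each member peak was solved from its fold and p-value.

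More members had an Rb peak in the abemaciclib lists, which were also longer, than in the DMSO lists. DMSO replicate 1 had 0 of 36 members bound, against 2.37% of all annotated genes, and replicate 2 had 1 bound, against 3.86%. Abemaciclib replicate 1 had 14 members bound (38.9%), against 20.6% of all genes, and replicate 2 had 10 (27.8%), against 18.9%. The difference between treatments was 11.5 members per library. Both abemaciclib counts lay above both DMSO counts, and the exact permutation test over the 4 libraries gave p = 0.333 (two-sided), which is the least that 2 libraries against 2 allow. With only the 1438 strongest peaks of each list kept, 0 members were bound in either abemaciclib library and the difference turned to -0.5 members per library. That value rested on RNY1 in DMSO replicate 2. The uncut list of DMSO replicate 1, also 1438 peaks long, called 2.37% of all genes, so counts near 0 say little about the members. The share of all genes called in the cut abemaciclib lists was not computed. No member was bound in IgG2a, where 0.00479% of all genes were called.

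**Figure D1:**
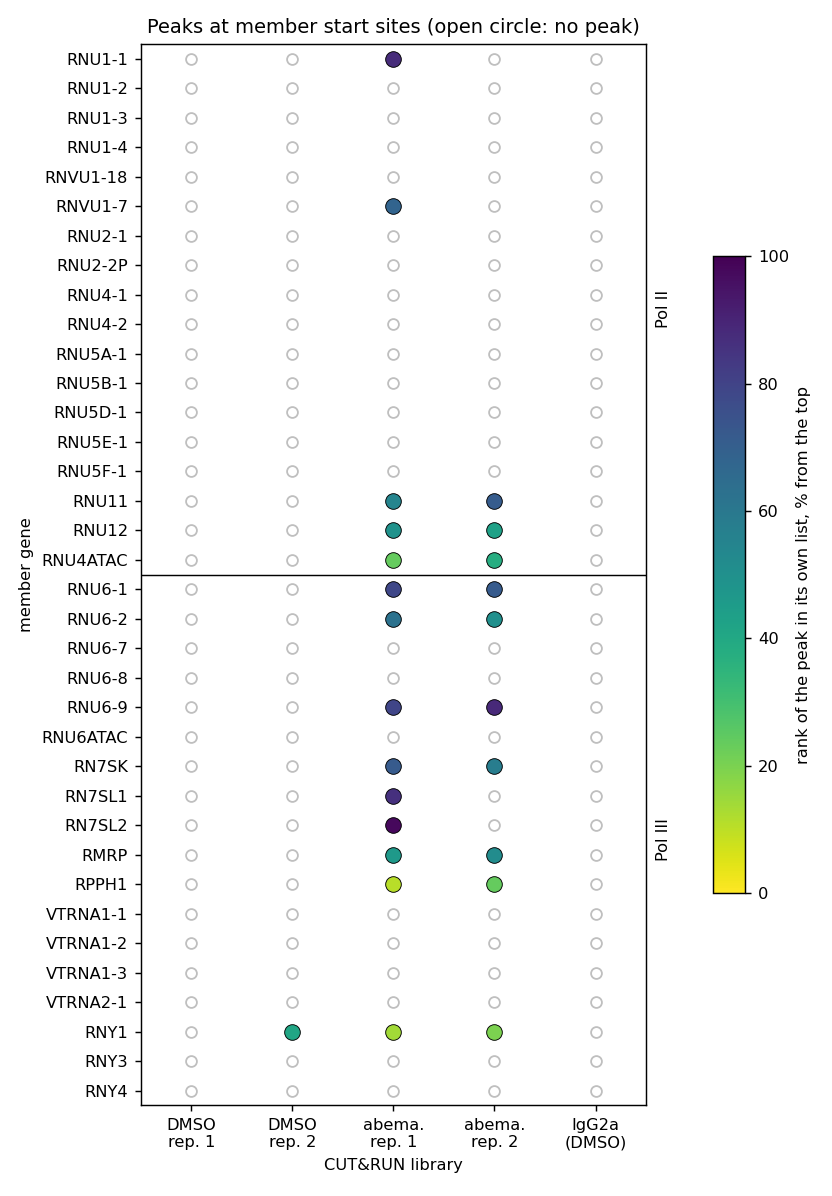
Each row is a member gene and each column a CUT&RUN library; a filled circle marks an Rb or IgG2a peak at the start site, shaded by the rank of that peak in its own list (percent from the top), and an open circle marks none. Filled circles number 14 and 10 in the abemaciclib libraries, 1 in DMSO replicate 2 and 0 in DMSO replicate 1 and IgG2a.

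All 10 members of abemaciclib replicate 2 were also bound in replicate 1. Bound in both were RNU11, RNU12 and RNU4ATAC of the Pol II genes and RNU6-1, RNU6-2, RNU6-9, RN7SK, RMRP, RPPH1 and RNY1 of the Pol III genes. The 10 members were 27.8% of the list, against 18.2% of all annotated genes and 42.4% of protein-coding genes. Of these, 9 were gained, with no peak in either DMSO library, against 14% of all genes. No member was bound in all 4 Rb libraries, against 1.94% of all genes. RNU1-1, RNVU1-7, RN7SL1 and RN7SL2 were bound in abemaciclib replicate 1 alone, and 22 members had no peak in any Rb library.

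Among the Pol II genes, binding in both abemaciclib libraries was seen at 3 of 18, and those 3 encode snRNAs of the minor spliceosome. None of the 15 genes for U1, U2, U4 and U5 was bound in both, against 18.2% of all annotated genes. For 7 of the 15, the U1 genes and RNU2-1, windows mostly recur in the genome and a missing peak cannot be read. All 3 bound genes, but only 4 of the 18 Pol II members, have another gene starting on the opposite strand within 500 bp upstream. The difference between minor and major spliceosome genes was not tested. RNU1-1 and RNVU1-7 were the Pol II members of the major spliceosome with a peak in abemaciclib replicate 1. RNU1-2, RNU1-3, RNU1-4, RNVU1-18, RNU2-1, RNU2-2P, RNU4-1, RNU4-2, RNU5A-1, RNU5B-1, RNU5D-1, RNU5E-1 and RNU5F-1 had none. The remaining minor-spliceosome gene, RNU6ATAC, is a Pol III gene and was unbound, with its nearest abemaciclib peaks 27724 and 28075 bp away.

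Among the Pol III genes, 7 of 18 were bound in both abemaciclib libraries, 38.9% against 16.7% of the Pol II genes. The Pol II genes include 7 members, the U1 genes and RNU2-1, whose windows mostly recur in the genome. A missing peak cannot be read there, and no Pol III member was among them, so the 2 shares are not fully comparable. The share among all annotated genes, 18.2%, lay close to that of the Pol II members and below that of the Pol III members. The genes are not replicates and the members were listed with results of these data known, so the difference between the classes was not tested. By family, 3 of 5 U6 genes, the 7SK gene, both RNase P and MRP RNA genes and 1 of 3 Y RNA genes were bound in both. RNU6-7, RNU6-8, RNY3, RNY4 and the 4 vault RNA genes (VTRNA1-1, VTRNA1-2, VTRNA1-3 and VTRNA2-1) had no peak in any Rb library.

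RPPH1, which encodes the catalytic RNA of RNase P, had the strongest member peak in abemaciclib replicate 1. The gene lies at chr14:20343075-20343407 on the minus strand of GRCh38. Its peak had a fold of 36.8 and rank 1483 of 13960 in replicate 1, with 60 fragments over the summit. In replicate 2 the fold was 20.4 and the rank 2898 of 12234, with 30 fragments. The nearest peaks in DMSO replicates 1 and 2 were 646814 and 111268 bp away.

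RNY1, at chr7:148987136-148987248 on the minus strand, was the single member bound under both treatments. In DMSO replicate 2 its peak was 188 bp wide, with a fold of 6.56, rank 1051 of 2582 and 10 fragments over the summit. In abemaciclib replicate 1 the fold was 32.0, the rank 1942 of 13960 and the pileup 52 fragments. Replicate 2 gave a fold of 23.0, rank 2417 of 12234 and 34 fragments. DMSO replicate 1 had no peak within 102485 bp. RNY1 was thus bound in 3 of the 4 Rb libraries, and its peak stood in the upper part of both abemaciclib lists.

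RNU4ATAC, the U4atac gene of the minor spliceosome, lies at chr2:121530881-121531007 on the plus strand, within an annotated CLASP1 locus on the opposite strand. It had 41 fragments over the summit in abemaciclib replicate 1, with a fold of 21.0 and rank 3317. In replicate 2 it had 23 fragments, with a fold of 13.5 and rank 4608. It was the strongest of the Pol II members in both lists.

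The other Pol II members bound in both libraries had lower peaks. RNU12 had 18 fragments over the summit in each library, with folds of 11.5 and 12.5 at ranks 6817 and 5222. RNU11 had 18 and 11 fragments, with folds of 9.52 and 6.74 at ranks 7593 and 8698. Both genes fell in the middle or lower part of their lists.

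Of the U6 genes, RNU6-1 and RNU6-9 were among the weaker of the members bound in both libraries, and RNU6-2 was stronger than these. RNU6-2 had 15 and 17 fragments over the summit in replicates 1 and 2, with folds of 8.02 and 10.1. RNU6-1, at chr15:67839939-67840045 on the minus strand, had 9 and 10 fragments, with folds of 5.67 and 6.87 at ranks 10984 and 8762. RNU6-9 had 10 and 8 fragments, with folds of 5.51 and 4.84. These 3 copies give the same U6 RNA from separate promoters, and the other copies, RNU6-7 and RNU6-8, lie close to each other on chromosome 14, with their nearest abemaciclib peaks at least 123851 bp away.

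RMRP, whose RNA forms RNase MRP, had 21 and 16 fragments over the summit, with folds of 11.9 and 10.1. RN7SK had 10 and 17 fragments, with folds of 6.64 and 8.30.

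The members bound in abemaciclib replicate 1 alone had small pileups. RN7SL2 had 5 fragments over its summit, RN7SL1 had 7, RNU1-1 had 8 and RNVU1-7 had 11. Their ranks ran from 9502 to 13639 of 13960. Over all bound members, the median fold was 7.63 in replicate 1 and 10.1 in replicate 2, against 14.0 and 12.9 for all annotated genes called in the same lists. The median member peak thus ranked 65.2% and 50.9% from the top of its list, against 37.6% and 39.7% for the genes called overall.

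**Figure D2:**
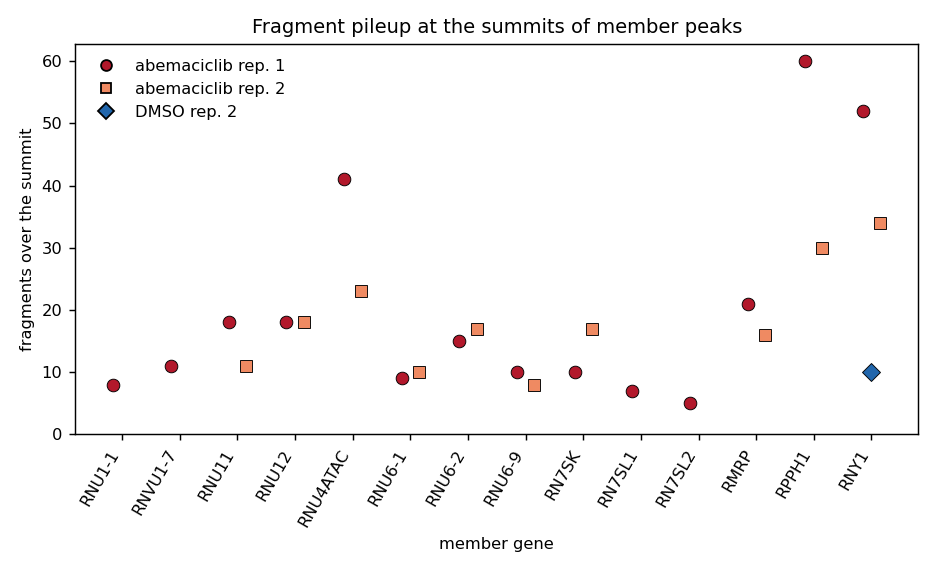
Fragment pileup at the summit (vertical axis, fragments) of each member peak (horizontal axis), for abemaciclib replicates 1 and 2 and DMSO replicate 2. RPPH1, RNY1 and RNU4ATAC reached 60, 52 and 41 fragments in abemaciclib replicate 1, and the other members had 21 or fewer.

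Members just inside and outside the window were examined, since the call has a fixed edge. RNU6-1 was called although its peaks ended upstream of the gene, and RNU12 was called with peaks that did not reach its start site in either library. RNU5E-1 had a peak 416 and 480 bp downstream of its start in abemaciclib replicates 1 and 2 and was not called. In replicate 1, VTRNA1-2 and RNU1-2 had peaks 253 and 343 bp downstream of the start and were not called. RNU12 had a DMSO replicate 2 peak 652 bp upstream, outside the window, with a fold of 4.77.

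Most summits at members lay upstream of the member's start. The calling window, 500 bp upstream and 200 bp downstream, itself favours such summits. The summit was upstream of the member's start in 11 of 14 members in abemaciclib replicate 1 and in 9 of 10 in replicate 2. The peak covered the start itself in 8 of 14 and in 7 of 10. For the Pol II members the median summit lay at -431 bp in replicate 1 (5 members) and -425 bp in replicate 2 (3 members), and for the Pol III members at -246 bp (9 members) and -96 bp (7 members). At RPPH1 the summits lay 69 and 96 bp upstream. At RNY1 they lay 488 and 505 bp upstream, at RNU4ATAC 431 and 418 bp, at RNU6-1 473 and 498 bp and at RNU12 550 and 566 bp.

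**Figure D3:**
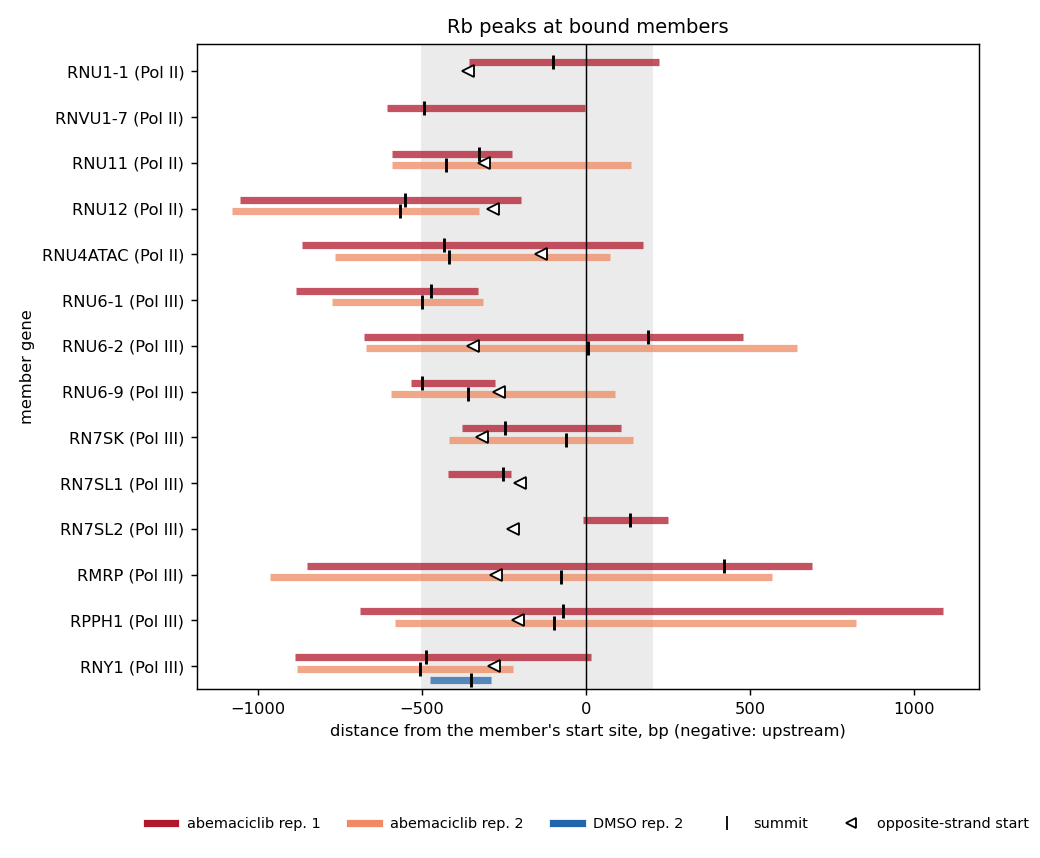
Extent of each Rb peak (bars) and its summit (black ticks) against the distance from the member's start site in bp, with the calling window in grey and the nearest opposite-strand start of another gene within 500 bp upstream as a triangle. Summits lay upstream of the start in 11 of 14 members in abemaciclib replicate 1 and 9 of 10 in replicate 2. The calling window reaches further upstream than downstream, which favours upstream summits.

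Neighbouring start sites were then noted. A protein-coding start lay within 2 kb of 9 members, and 7 of those 9 were bound in both abemaciclib libraries, against 3 of the 27 others. Among non-member non-coding genes the corresponding shares were 41.4% and 1.84%. In 8 of the 9 a protein-coding transcript of the neighbour started upstream on the opposite strand, so that the pair is divergent: TAF12 309 bp from RNU11, POLDIP3 282 bp from RNU12, TMEM259 399 bp from RNU6-2, MED16 266 bp from RNU6-9, GSTA4 337 bp from RN7SK, RPS29 200 bp from RN7SL1, CCDC107 273 bp from RMRP and PARP2 208 bp from RPPH1. RN7SL1 lies inside the annotated RPS29 gene, so the RPS29 start named here is that of a transcript and not of the whole gene. The remaining one, RNU2-2P, has an annotated start of WDR74 at its own position and was unbound. With a peak shared between divergent starts, Rb at the RNA gene and Rb at the coding gene cannot be told apart.

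RNU4ATAC, RNU6-1 and RNY1 were the members bound in both libraries with no protein-coding transcript starting within 2 kb. RNY1 has the lncRNA gene GHET1 starting 279 bp upstream on the opposite strand. At RNU4ATAC a CLASP1 transcript classed as a retained intron starts 136 bp upstream on the opposite strand, and the nearest protein-coding CLASP1 start is 25788 bp away. RNU6-1 has no other start on the opposite strand within 500 bp upstream.

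When starts of every class were counted, a division chosen after the peaks had been seen, 13 members had an opposite-strand start of another gene within 500 bp upstream. Of these, 9 were bound in both abemaciclib libraries, against 1 of the 23 others, which was RNU6-1. The division and the calling window span the same 500 bp upstream. A peak over such a start thus makes the member bound by the rule itself, so the difference is partly built in. The division was similar for each polymerase, with 3 of 4 against 0 of 14 in the Pol II members and 6 of 9 against 1 of 9 in the Pol III members. The exceptions with such a start were RNU1-1, RN7SL1 and RN7SL2, bound in replicate 1 alone, and RNU6-7, which was unbound and has an unnamed lncRNA starting 309 bp upstream. A larger share of Pol III members (9 of 18) than of Pol II members (4 of 18) had such a start.

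The same division, with the same overlap with the calling window, was made outside the list. Among non-member non-coding genes, 49.3% of 3431 with an opposite-strand start upstream were bound in both abemaciclib libraries, against 3.18% of 39163 without one. Among other copies of the member families the shares were lower, with 6 of 43 (14.0%) and 16 of 3397 (0.471%). Among protein-coding genes the shares were 74.0% of 3899 and 34.7% of 16134. Members are few, so their shares are counts of these genes and carry no test.

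**Figure D4:**
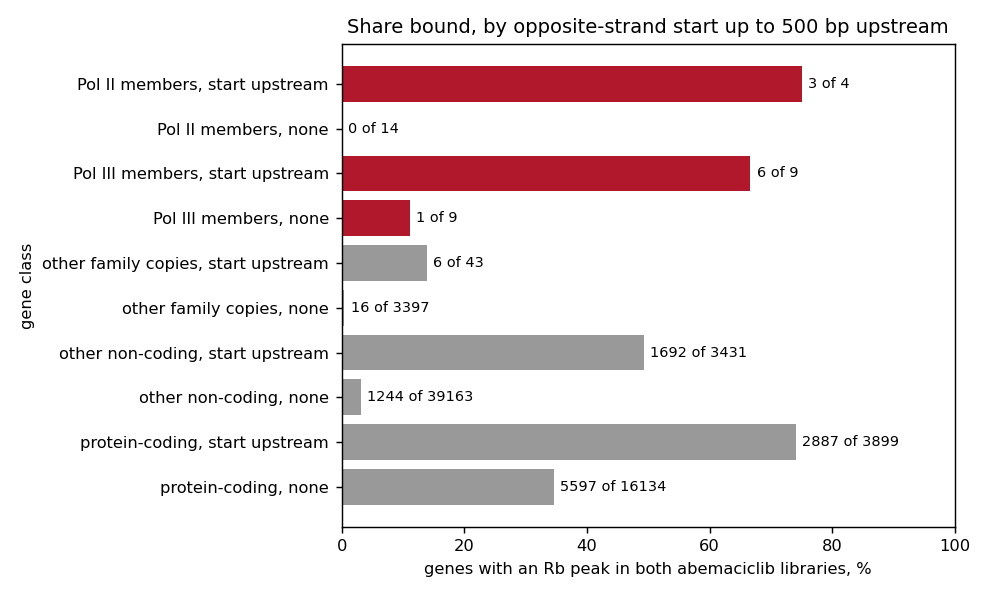
Percentage of genes in each class with an Rb peak in both abemaciclib libraries (horizontal axis), split by whether another gene starts on the opposite strand within 500 bp upstream, with the counts beside the bars. Members with such a start (red) were bound in 3 of 4 Pol II and 6 of 9 Pol III cases, and those without in 0 of 14 and 1 of 9. Such a start lies inside the calling window, so a peak over it counts for the gene.

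Within the divergent pairs the summit was compared with both starts. It lay nearer to the opposite-strand start than to the member's own start at 7 of 12 members in abemaciclib replicate 1 and at 5 of 9 in replicate 2. RNU11, RNU12, RNU4ATAC, RNU6-9 and RNY1 had the summit nearer to the neighbour in both libraries. At RNU11 the summits lay 16 and 116 bp from the TAF12 start and 325 and 425 bp from the RNU11 start. RPPH1, RNU6-2 and RMRP had the summit nearer to their own start in both. At RMRP, however, the replicate 1 summit lay 422 bp downstream of the start, beyond the calling window, and 695 bp from the CCDC107 start. RN7SK differed between libraries. In replicate 1 its summit lay 71 bp from the nearest GSTA4 transcript start, 317 bp upstream of RN7SK, and 91 bp from the GSTA4 coding start. In replicate 2 the RN7SK summit lay 61 bp from its own start.

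The sequence around the abemaciclib replicate 1 summits is given for RPPH1, whose summit in that library lay close to its start, and for the members with no coding start nearby, 60 bases to either side on the member's strand in GRCh38. Of the E2F, CHR, octamer and ZNF143 strings, which alone were sought here, the octamer ATTTGCAT was found, and capitals mark it.
RNU4ATAC, chr2:121530390-121530510, plus strand: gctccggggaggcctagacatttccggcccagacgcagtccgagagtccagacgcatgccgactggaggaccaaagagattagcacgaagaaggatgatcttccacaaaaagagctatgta
RNU6-1, chr15:67840458-67840578, minus strand: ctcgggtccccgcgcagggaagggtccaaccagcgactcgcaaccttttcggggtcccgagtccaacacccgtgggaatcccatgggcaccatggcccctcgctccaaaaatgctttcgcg
RPPH1, chr14:20343416-20343536, minus strand: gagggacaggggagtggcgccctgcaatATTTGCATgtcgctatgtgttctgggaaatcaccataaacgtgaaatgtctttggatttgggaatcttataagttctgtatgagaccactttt
RNY1, chr7:148987676-148987796, minus strand: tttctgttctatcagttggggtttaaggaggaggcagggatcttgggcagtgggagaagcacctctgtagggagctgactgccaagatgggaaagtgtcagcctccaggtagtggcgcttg
The RPPH1 stretch held the octamer. The other stretches held no match to the E2F, CHR, octamer or ZNF143 strings, which says only that these letters are not in these windows.

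Promoter elements were counted from 250 bases upstream to 50 downstream of each start, with strings sought on both strands unless said otherwise. The octamer was found in 15 of 36 members (41.7%), against 1.70% of protein-coding genes and 2.28% of all annotated genes. The PSE core, sought on the gene strand from 80 to 40 bases upstream, was found in 9 of 18 Pol II members and 6 of 18 Pol III members, against 1.65% of protein-coding and 2.39% of all genes. The TATA box, on the gene strand from 40 to 15 bases upstream, was found in 10 Pol III members and 1 Pol II member, RNVU1-7, against 5.67% of protein-coding and 4.92% of all genes. The TATA box was thus found mainly in the Pol III members, and the PSE core and octamer in members of both polymerases.

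The elements were found in both bound and unbound members. The octamer was present in 6 of the 10 members bound in both abemaciclib libraries and in 9 of the 22 unbound members. The PSE core was present in 4 of 10 and 9 of 22, and the TATA box in 4 of 10 and 6 of 22. No member held ZNF143's core ACTACAA, found in 3.11% of protein-coding and 3.36% of all genes, or the B box core GTTCGANTC within 100 bases downstream of the start on the gene strand, found in 0.0399% and 0.0463%. These strings were matched exactly, so sites of other forms were not counted. Their absence does not show that the genes lack ZNF143 sites or a B box.

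Strings bound by E2F factors, through which Rb reaches cell cycle promoters, were counted in the same windows. The strings counted were TTCCCGC, the variant TTCGCGC, the variant TTGCCGC and the variant TTGGCGC. At least 1 of them was found in 5 of 36 members (13.9%), against 15.2% of protein-coding and 8.33% of all genes. They were RNU4ATAC and RPPH1 among the bound and RNU2-1, RNU4-2 and VTRNA2-1 among the unbound members, with the string at position -40 of RNU4ATAC and -174 of RPPH1. The CHR string TTTGAA was found in 9 of 36 members (25%), of which RNY1 was the one bound in both libraries, against 13.3% of protein-coding and 19.8% of all genes. Within 60 bases of the summit, an E2F string was found at 0 of the 10 members in replicate 1 and at 1, RNU6-9, in replicate 2, against 9.96% and 10.0% of all peaks on chromosomes 1 to 22, X and Y.

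Base composition overlapped in range between bound and unbound members, with lower medians in the bound. The 300-base windows of the 10 members bound in both libraries held a median of 10.5 CpG dinucleotides (5 to 23), those of the 22 unbound members a median of 12 (2 to 23), and those of protein-coding genes a median of 18. Median GC content was 42.8% (33.7% to 57%) in the bound members, 50.3% (31.7% to 65.3%) in the unbound members and 60.3% in protein-coding genes. These differences were not tested.

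Many genes of these families exist as near-identical copies. Of all 50-base stretches in the calling window, between 0% and 38.7% occur once in the genome for the 6 U1 members and 15.4% for RNU2-1, against at least 74.2% for each of the other 29. All 10 members bound in both libraries were among those 29, while RNU1-1 and RNVU1-7 were not. For the U1 members and RNU2-1, a missing peak and reads that could not be placed cannot be told apart. IgG2a peaks lay no nearer than 73568 bp to any member start, and 0 of the 25 Rb peaks at members overlapped one. Of the 589 IgG2a peaks in all, 84 lay on chromosomes 1 to 22, X and Y. The Rb peaks had also been called against IgG controls, so an overlap was unlikely in any case.

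Other annotated copies of the member families, mostly pseudogenes, were rarely bound. In both abemaciclib libraries 22 of 3440 were bound (0.640%), including 1 of 1271 U6 copies, 2 of 293 7SK copies, 2 of 678 7SL copies and 4 of 809 Y RNA copies. Of the U1 copies, 8 of 137 were bound in both (5.84%). These were RNVU1-6, RNVU1-14, RNVU1-15, RNVU1-22, RNVU1-28, RNVU1-29, RNVU1-30 and RNVU1-2A, and RNVU1-14 also had a peak in DMSO replicate 2. Sharing of reads among these copies was not tested.

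Related non-coding genes outside the list were mostly unbound, as were non-member non-coding genes in general. Of the latter, 6.89% were bound in both abemaciclib libraries, against 18.2% of all annotated genes. Of 8 Pol II genes, which make the U7, U3, U8 and U13 RNAs, 1 was bound in both abemaciclib libraries (12.5%). This was RNU7-1, whose RNA processes histone mRNA ends, with folds of 44.2 and 43.2 at ranks 395 and 323 and no DMSO peak. An annotated transcript of the coding gene C12orf57 starts 1 bp from it on the same strand. Of 18 Pol III genes, BCYRN1 and 17 5S rRNA genes, 1 (5.56%) was bound in both, RNA5S12, with folds of 3.01 and 3.58. RNA5S12 also had an IgG2a peak, with a fold of 12.8. How far the windows of these related genes recur in the genome was not measured, so a missing peak cannot be read where copies are near-identical.

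Most genes for the proteins that transcribe, process or bind these RNAs were bound with abemaciclib. Of 84 such genes, 67 (79.8%) were bound in both abemaciclib libraries, against 42.4% of protein-coding genes. Bound in all 4 Rb libraries were 10 (11.9%), against 4.73% of protein-coding genes. The protein-coding share takes in all such genes, whether or not they are active in these cells. It was 74.0% for those with an opposite-strand start of another gene within 500 bp upstream and 34.7% for those without. The 84 genes were not split in this way. These lists were chosen with earlier results of these data known, and the difference from protein-coding genes was not tested. The counts bound in both were 5 of 7 for SNAPc and its activators, 9 of 11 for TFIIIA, TFIIIB and TFIIIC, 9 of 14 for Pol III subunits and MAF1, 14 of 15 for Integrator, 13 of 15 for Sm core and snRNP proteins, 8 of 10 for RNase P and MRP proteins and 9 of 12 for 7SK, 7SL, Ro and vault particle proteins. INTS7, a subunit of the Integrator complex that ends snRNA transcripts, had the peak of rank 1 in both abemaciclib lists. SNRPA, which encodes an RNA-binding protein of the U1 particle, was at ranks 90 and 60, SNRPD3 of the Sm ring at 109 and 87, and POU2F1, which encodes Oct-1, at 118 and 113. These 4 genes also had peaks in both DMSO libraries. Neighbouring starts were not examined for the protein genes of these lists. A peak shared with another gene's start cannot be told apart from one at the listed gene.

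Other well-placed genes of these lists included RO60, the Ro protein that binds Y RNAs, at ranks 322 and 228, POLR3K, a Pol III subunit, at 532 and 780, and RPP30 of RNase P at 748 and 629. MAF1, a repressor of Pol III, was at ranks 2173 and 1502, GTF3C5 of TFIIIC at 2228 and 2142 and BDP1 of TFIIIB at 3132 and 3183. SNAPC2 of SNAPc stood at ranks 3946 and 3464. None of the member peaks ranked as high as those of INTS7, SNRPA, SNRPD3, POU2F1, RO60, POLR3K or RPP30 in either abemaciclib list.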

How the data were processed

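Rb and IgG2a CUT&RUN peak lists of ZR-75-1 cells were used as deposited. Per the submitters' processing notes, Bowtie2 2.3.4.1 and MACS2 2.2.7.1 were used with build hg38, and the study's methods give a q-value threshold of 0.05 with peaks called per library against IgG controls. Handling of reads with several genomic matches is not given in the sources used here. In the deposited lists the fold is a ratio written by the authors' peak caller, beside the −log10 of a p-value and of a q-value. Peaks were intersected with start sites of GENCODE 44 on GRCh38 by scripts in Python 3.11.15 with numpy 2.4.6, pandas 2.3.3 and scipy 1.17.1. Whole-number pileups were solved from fold and p-value to a tolerance of 0.001 in −log10 p, and no count model could be fitted to peak lists. Groups came from sample titles. Calls, solved pileups and the permutation test were checked on simulated data. Every member is named, with fuller values by the named-genes rule: members bound in a DMSO library, or in both abemaciclib libraries with no coding start within 2 kb. Values for other members bound in abemaciclib were added after the data were seen. Members, lists and motifs were chosen with earlier results of these data known. In related lists at most 5 genes each were eligible for naming, by best mean rank in the abemaciclib lists.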

Additional observations from a re-analysis of the deposited data

How the results depend on the processing

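Of 79 recomputed values for 6 results, 64 kept their direction and lay within 1.5 times the reported count, 14 moved further and 1 reversed. With only the 1438 strongest peaks of each Rb list kept, the difference between treatments reversed to -0.5 members per library, and 0 members were bound in both abemaciclib libraries, 0 of them Pol II, 0 Pol III and 0 gained. RNY1 in DMSO replicate 2 was the one member left, and RPPH1, at rank 1483, fell just outside. A list of that length called 2.37% of all genes in DMSO replicate 1, so these counts say little about the members. With a window of 100 bp to either side of the start, 5 members were bound in both abemaciclib libraries, 1 Pol II and 4 Pol III, and 5 were gained. The 5 were RNU4ATAC, RNU6-2, RN7SK, RMRP and RPPH1. Without members that have a coding start within 2 kb, 3 were bound in both, 1 Pol II and 2 Pol III, and 2 were gained. Leaving out 1 library at a time gave a difference of 9.5 to 13.5 members per library, 10 to 14 members bound in the remaining abemaciclib libraries (3 to 5 Pol II and 7 to 9 Pol III), 9 to 13 gained and 0 to 1 bound in all. The value of 5 Pol II members came from leaving out abemaciclib replicate 2, which added RNU1-1 and RNVU1-7, and the 1 bound in all from leaving out DMSO replicate 1. A q-value of at most 1e-05, an overlap of at least 100 bp, a summit inside the window, a window from 2000 bp upstream to 500 bp downstream, removal of peaks that overlap IgG2a peaks and removal of members under 50% unique each kept all 6 results within 1.5 times. No Rb peak at a member overlapped an IgG2a peak, so that removal could not change the results. With the replicate number as a block, an alternative chosen after seeing the data, the paired differences were 14 and 9 members, with a mean of 11.5 and an exact sign-flip permutation p of 0.5 (two-sided), the least that 2 pairs allow. The labels do not say that a shared number marks a shared culture or day, and the other 5 results are single counts over the libraries and were not paired. The lists set the limit: a site just under the authors' threshold reads as unbound.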
